A study of Homo sapiens with 21 samples.

Results

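CD163 and CD93 encode surface receptors of macrophages, and their loci were 2 of 53 captured by Tri-C, which counts DNA fragments that were ligated together with a chosen fragment, the viewpoint. The members were taken as all deposited files named for CD163 or CD93. These were 14 of 371 files, 7 for each locus. BLaER is a human B cell leukemia cell line that carries an inducible C/EBPα and converts into induced macrophages (iMacs) when 17β-estradiol, IL-3 and CSF-1 are added. Each locus had an enhancer viewpoint, read at 0, 24 and 96 h of conversion in BLaER cells and at 96 h in the subclone CTCF-AID treated with auxin, in which the auxin-inducible degron removes CTCF. Each locus also had a viewpoint at a CTCF-binding site (CBS) taken as the domain boundary, read at 0, 24 and 96 h in BLaER cells. The labels list 3 biological replicates per condition, each with 3 technical replicates, and the deposited files pool them, so that 1 library stood for a condition. All comparisons below are therefore between libraries, not between conditions, and have no replicate check. The control of the CTCF-depleted library was the 96 h BLaER library, for which the labels name neither the degron nor auxin, so that subclone, auxin and loss of CTCF cannot be told apart.

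CD163 is the scavenger receptor with which macrophages take up complexes of haemoglobin and haptoglobin. CD93 is a C-type lectin-like receptor on myeloid and endothelial cells. In such loci, active enhancers contact their promoter through the folded chromatin fibre, and cohesin extrudes loops of chromatin until it meets CTCF bound to DNA, so that CTCF sites often mark the borders of a domain. Tri-C reads 3 or more ligated fragments at once, so that it shows which fragments met the viewpoint together.

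CD163 (ENSG00000177575.13) lies on the minus strand of chromosome 12, at chr12:7470811-7503893 in hg38. Its enhancer viewpoint lay 39.0 kb upstream of the start of transcription, outside any annotated gene, and its CBS viewpoint lay on the other side of the gene, 323 kb from the enhancer and 1.05 kb from PEX5, a receptor for import into peroxisomes. CD93 (ENSG00000125810.10) lies on the minus strand of chromosome 20, at chr20:23079360-23086324. Its enhancer viewpoint lay 61.9 kb upstream of the start, in an unconfirmed transcript (ENSG00000279164). Its CBS viewpoint lay 456 kb from the enhancer, in a long noncoding RNA gene (ENSG00000283072), with FOXA2 as the nearest protein-coding gene at 107 kb. At both loci the promoter therefore lay between the enhancer and the boundary site. Viewpoint fragments, bounded by NlaIII sites, are the DNA that every three-way contact from them shares. The enhancer fragments of both loci and the CBS fragment of CD93 are printed on the plus strand, with capitals for a match to PU.1 (GAGGAAG), C/EBP (TTGCNNAA), AP-1 (TGANTCA) or the CTCF core (CCANNAG followed directly by NNGGC), searched on both strands.
CD163 enhancer fragment, its first 300 of 311 bases, chr12:7542613-7542912: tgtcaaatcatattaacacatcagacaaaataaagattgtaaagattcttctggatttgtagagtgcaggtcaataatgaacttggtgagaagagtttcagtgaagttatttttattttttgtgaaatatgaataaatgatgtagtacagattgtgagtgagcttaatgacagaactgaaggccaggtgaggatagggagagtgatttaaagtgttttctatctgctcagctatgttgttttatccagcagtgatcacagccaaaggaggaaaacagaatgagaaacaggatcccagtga
CD93 enhancer fragment, chr20:23148118-23148308: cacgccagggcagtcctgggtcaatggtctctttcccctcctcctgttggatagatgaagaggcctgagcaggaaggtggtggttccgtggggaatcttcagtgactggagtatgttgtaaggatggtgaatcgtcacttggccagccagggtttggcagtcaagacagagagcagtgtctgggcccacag
CD93 CBS fragment, chr20:22692088-22692297: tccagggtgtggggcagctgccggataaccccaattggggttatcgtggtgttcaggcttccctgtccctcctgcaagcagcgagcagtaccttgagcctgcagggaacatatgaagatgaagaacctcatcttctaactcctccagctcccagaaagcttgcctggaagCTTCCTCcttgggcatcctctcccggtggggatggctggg

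In the printed bases of these 3 fragments the letters of the motifs were found only once, as a PU.1 match on the minus strand of the CD93 CBS fragment. PU.1 letters were present in 13.7% of the CBS fragments of 51 loci. The CTCF core was present in 7.84% of CBS fragments and in 51.0% of the 12 kb windows around them, against 29.2% of 8466 windows of 12 kb within 1 Mb of the enhancers. Around the CD93 CBS viewpoint, 1 match lay 5224 bases from its centre, on the minus strand. Around the CD93 enhancer viewpoint there were 2 matches, the nearest at -693 bases on the plus strand. The match nearest to each of these viewpoints is shown, as the DNA with CTCF core letters in the windows of these CD93 elements. They are printed on the strand of the match, with the core in capitals.
CD93 near the CBS viewpoint, chr20:22697396-22697437, minus strand: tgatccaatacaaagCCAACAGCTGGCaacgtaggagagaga
CD93 near the enhancer viewpoint, chr20:23147499-23147540, plus strand: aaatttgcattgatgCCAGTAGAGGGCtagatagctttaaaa
Within 6 kb of the CD93 promoter and of the CD163 enhancer, promoter and CBS viewpoint no CTCF core letters were found. Over the 51 loci the core was present in 19.6% of the 12 kb windows around enhancers and in 35.3% of those around promoters. The CD163 promoter, from 250 bases before to 50 bases after the start of transcription (RefSeq, GRCh38.p14), is the DNA at the centre of the promoter window below. It held a C/EBP match (capitals, TTGCTGAA on the opposite strand), as 10.5% of 35116 RefSeq promoters of this length did.
CD163 promoter, chr12:7503728-7504027, minus strand: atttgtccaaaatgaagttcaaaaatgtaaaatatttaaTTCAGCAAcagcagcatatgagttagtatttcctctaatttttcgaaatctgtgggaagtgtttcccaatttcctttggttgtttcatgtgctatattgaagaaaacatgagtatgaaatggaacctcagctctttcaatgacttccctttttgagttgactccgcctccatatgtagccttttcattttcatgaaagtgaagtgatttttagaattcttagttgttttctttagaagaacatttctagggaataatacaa

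A count is 1 observation of 2 reporter fragments in a read with the viewpoint. Within 1 Mb of the viewpoint, the enhancer libraries held 29800, 35257 and 30095 counts for CD163 at 0, 24 and 96 h and 47984 counts in the CTCF-depleted library. For CD93 they held 50857, 57005, 54414 and 58095 counts in the same order. The CBS libraries held 38904, 47535 and 41606 counts for CD163 and 45590, 52632 and 48306 for CD93. Over the whole chromosome the enhancer libraries held 43410 to 77050 counts for CD163 and 70377 to 83765 for CD93, against 28977 to 286909 over the 51 loci. The depleted library held 77050 counts over 32898 fragment pairs at CD163, and the 96 h control 43410 over 23967. At CD93 these were 83765 over 37972 and 70703 over 42140. A pair was thus counted more often on average in the depleted library, and the part of this in the distant share was not tested. A count was distant when the 2 reporters were separated by more than 10 kb from one another and each also from the viewpoint. From the enhancers, the distant share was 14.7% for CD163 and 16.8% for CD93 in the CTCF-depleted library. Over the conversion it was 23.6, 23.9 and 22.8% for CD163 and 26.2, 23.1 and 29.4% for CD93 at 0, 24 and 96 h. The fall of the distant share in the depleted library was thus common to both loci, and it passed the test at 47 of 51 loci (92.2%), with log2 odds ratios of -0.78 for CD163 and -1.05 for CD93. The part of this shift in the depletion results below was examined only by dividing by distant counts in place of all counts. This was done for the contacts with the promoter and the boundary site, and not for other windows or neighbouring promoters.

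The first comparison addressed whether the enhancers met their promoters together with a further distant fragment more often as the cells converted (E-P-X: enhancer viewpoint, promoter window of 12 kb, any other distant fragment). At CD163, E-P-X contacts numbered 385, 477 and 644 at 0, 24 and 96 h, or 1.29, 1.35 and 2.14% of counts within 1 Mb. At CD93 they numbered 430, 587 and 781, or 0.846, 1.03 and 1.44%. Both shares were thus highest at 96 h. Both rose at 96 h over 0 h, by 0.74 on the log2 scale at CD163 (95% interval 0.56 to 0.93, adjusted exact p = 8.00e-16) and by 0.77 at CD93 (0.60 to 0.95, adjusted exact p = 1.61e-19). A call needed an adjusted p under 0.05 in the exact conditional binomial test and a change of at least 1.5-fold in the odds ratio, and both the p-values and the intervals cover counting error only. In this comparison 26 of 51 loci rose (51.0%), all of them among the 36 loci of iMac genes (72.2%), whose median was 1.00. CD163 ranked 25 and CD93 ranked 23 of 51 by rise, so that both lay below the median of the iMac loci. Neither was called at 24 h over 0 h, with 19.6% of loci rising and log2 ratios of 0.07 (-0.13 to 0.26) at CD163 and 0.29 (0.11 to 0.47, adjusted exact p = 0.00238) at CD93, where it was -0.10 with windows of 30 kb. Between 24 and 96 h, with 27.5% of loci rising at 96 h over 24 h, CD163 rose by 0.67 (0.50 to 0.85, adjusted exact p = 2.07e-14). The CD93 ratio was 0.48 (0.33 to 0.64, adjusted exact p = 1.26e-09), under the fold minimum. Over the alternatives it was 0.14 to 0.60, and the CD93 ratio at 24 h over 0 h was -0.10 to 0.48. The time of the CD93 gain thus depended on the setting. The distant share of CD93 itself changed by -0.24 at 24 h over 0 h and by 0.47 at 96 h over 24 h. With windows of 30 kb the calls at CD93 for 96 h over 0 h (0.43) and at CD163 for 96 h over 24 h (0.54) were lost.

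**Figure D1:**
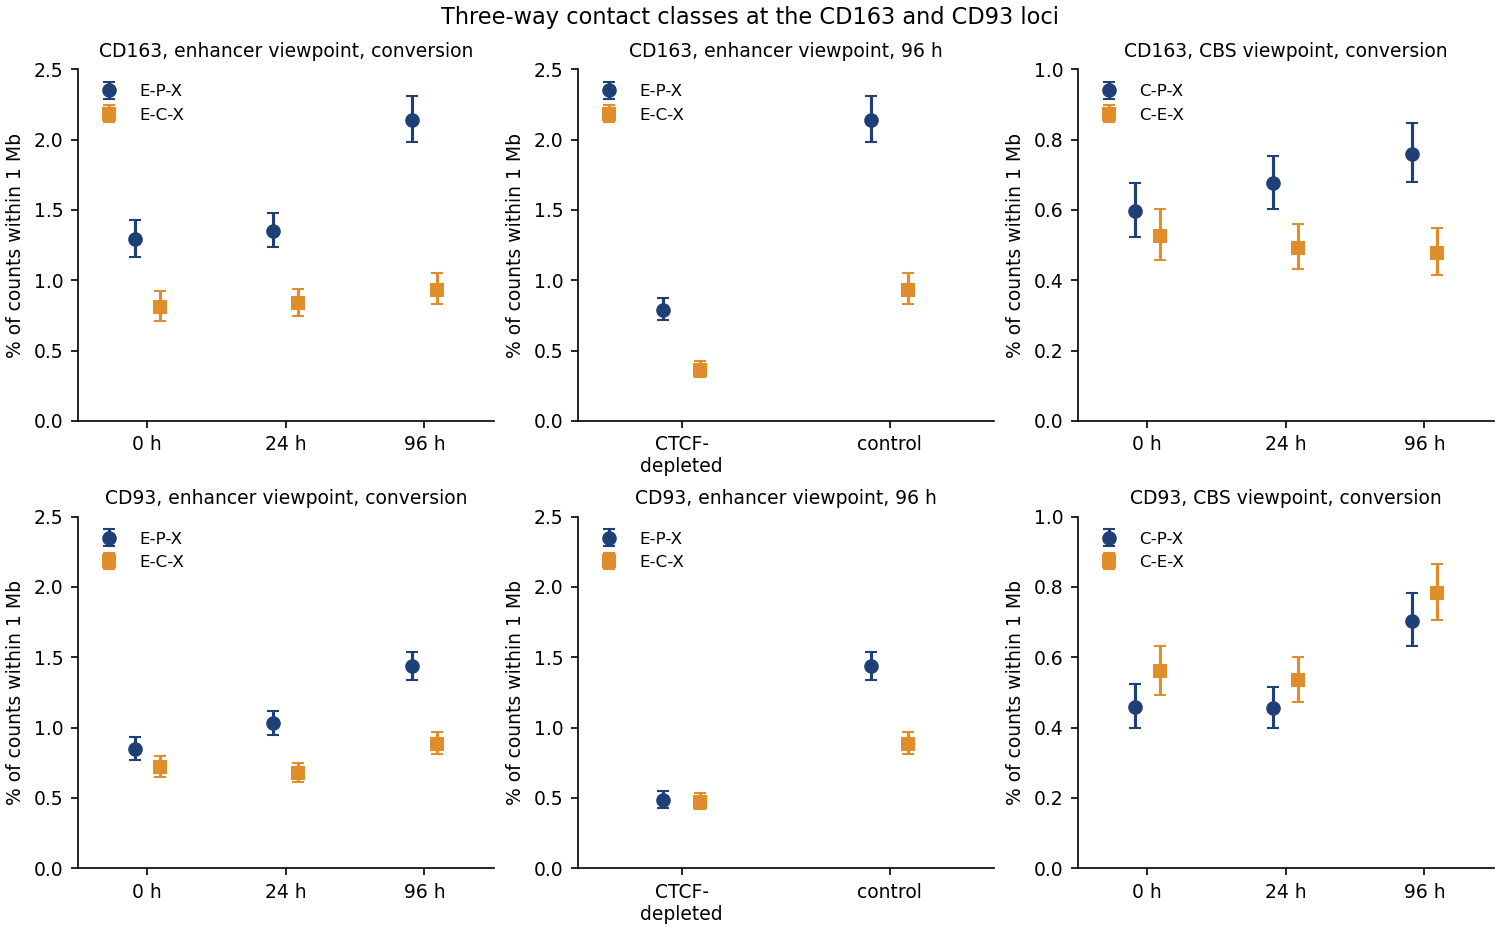
Percent of counts within 1 Mb in each three-way contact class (y axis) by library (x axis), with 95% exact binomial intervals that cover counting error only; blue circles are contacts with the promoter window and orange squares those with the CBS or enhancer window, CD163 in the upper row and CD93 in the lower. E-P-X was 0.792% at CD163 and 0.485% at CD93 in the CTCF-depleted library, against 2.14% and 1.44% in the control at 96 h.

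A window of the same width at the same distance on the other side of each enhancer, away from the promoter, served as a reference within the locus. At CD163 this mirror window held 450, 541 and 454 counts at 0, 24 and 96 h, or 1.51, 1.53 and 1.51%. At CD93 it held 464, 656 and 768 counts, or 0.912, 1.15 and 1.41%. The CD163 mirror window was thus level over the conversion, with a log2 ratio of 0.00 (-0.19 to 0.19) at 96 h over 0 h, whereas that of CD93 was higher at 96 h, with 0.64 (0.47 to 0.81). Promoter over mirror was 0.856, 0.882 and 1.42 at CD163 and 0.927, 0.895 and 1.02 at CD93. At CD163, the promoter thus had fewer counts than its mirror at 0 and 24 h and more at 96 h. At CD93 the contacts on both sides of the enhancer were higher at 96 h than at 0 h, by ratios whose intervals overlap (0.60 to 0.95 for the promoter).

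The further fragments that the enhancer and promoter met were spread over both sides of the enhancer. At CD163, 143 of 385 partners at 0 h (37.1%), 173 of 477 at 24 h (36.3%) and 264 of 644 at 96 h (41.0%) lay on the side of the enhancer that faces away from the promoter. At CD93 these were 28.2% of 432 partners at 0 h, 39.4% of 587 at 24 h and 41.9% of 783 at 96 h, where a count with both reporters in the promoter window gave 2 partners. The CD93 interval at 96 h, 38.4 to 45.4%, thus lay above that at 0 h, 24.0 to 32.7%, while the CD163 intervals of 37.2 to 44.9% and 32.3 to 42.2% overlapped. Of all distant reporters at CD93, 61.4% lay on the promoter side at 0 h and 51.5% at 96 h. The part of this wider shift in the partner shares was not tested. The share of partners between promoter and boundary site at CD93 was 34.3, 26.6 and 23.9% at 0, 24 and 96 h. At 96 h the fullest partner window of 10 kb lay 20 to 30 kb from the enhancer towards the promoter at both loci, with 60 counts at 96 h and 22 at 0 h at CD163 and 53 and 19 at CD93. At CD163 this was nearly a tie with the window 10 to 20 kb on the other side of the enhancer, with 58 and 36. Partner places were not tested, since counts of 1 read can share a partner.

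Along the CD163 locus, the 10 kb window over the start of CD163 held 549 counts at 96 h and 328 at 0 h, and rose by 0.74 (0.54 to 0.94). By its share it ranked 7, 8 and 2 of 98 windows at 0, 24 and 96 h, with only the window 20 to 30 kb on the other side of the enhancer above it at 96 h (566 counts at 96 h and 489 at 0 h). Of 98 windows within 500 kb, 7 rose and 27 fell at 96 h over 0 h, against 14.5% rising and 20.9% falling over all loci. The largest rises were in both windows 480 to 500 kb beyond the enhancer, at FOXJ2, a forkhead transcription factor (44 counts at 96 h and 13 at 0 h, then 37 and 13), and in a window 420 to 430 kb away on the promoter side, at RBP5, a retinol-binding protein (88 and 42). The first of these was a log2 ratio of 1.71 (0.83 to 2.76, adjusted exact p = 0.000169). The 12 kb window around the start of RBP5 had 66 counts at 96 h and 85 at 0 h (-0.38, not called). The largest falls were in a window without a protein-coding gene 260 to 270 kb away on the promoter side (63 counts at 96 h and 165 at 0 h, -1.40, -1.85 to -0.98), at NANOG, a transcription factor of pluripotent cells (62 and 152, -1.31), and at CLEC4C, a lectin of plasmacytoid dendritic cells (34 and 81, -1.26). Of the windows that rose at CD163, 4 lay within 100 kb of the enhancer and 3 beyond, whereas all 27 that fell lay beyond 100 kb. The median distance of distant reporters from the viewpoint was 159 kb at 0 h, 167 kb at 24 h and 103 kb at 96 h.

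Along the CD93 locus, 18 windows rose and 19 fell at 96 h over 0 h. The largest rise lay 80 to 90 kb beyond the enhancer, on the side away from CD93, in a window without a protein-coding gene, which held 1023 counts at 96 h and 309 at 0 h (1.65, 1.46 to 1.84, adjusted exact p = 7.02e-79). The window 70 to 80 kb away beside it held 748 counts at 96 h and 294 at 0 h (1.26), and the window at GZF1, a zinc finger protein 210 to 220 kb away, held 258 and 83 (1.54). The strongest gain of three-way contacts at CD93 thus lay outside the enhancer to promoter interval. By its share, the window over the start of CD93 ranked 13, 14 and 17 of 98 at 0, 24 and 96 h. All 3 of the largest falls lay between the promoter and the boundary site, in windows without a protein-coding gene 270 to 360 kb from the enhancer, such as the farthest with 83 counts at 96 h and 225 at 0 h (-1.54, -1.92 to -1.17). At 24 h over 0 h, 31 windows fell at CD93 (31.6%) and 2 at CD163 (2.04%), against 499 of 4981 windows over all loci (10%). The distant share of CD93 as a whole changed by -0.24 in this comparison, rank 49 of 51 by rise. Windows were not tested relative to distant counts. The share of distant reporters on the promoter side of the CD93 enhancer was 61.4, 52.9 and 51.5% at 0, 24 and 96 h, and 58.3, 57.3 and 59.1% at CD163.

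**Figure D2:**
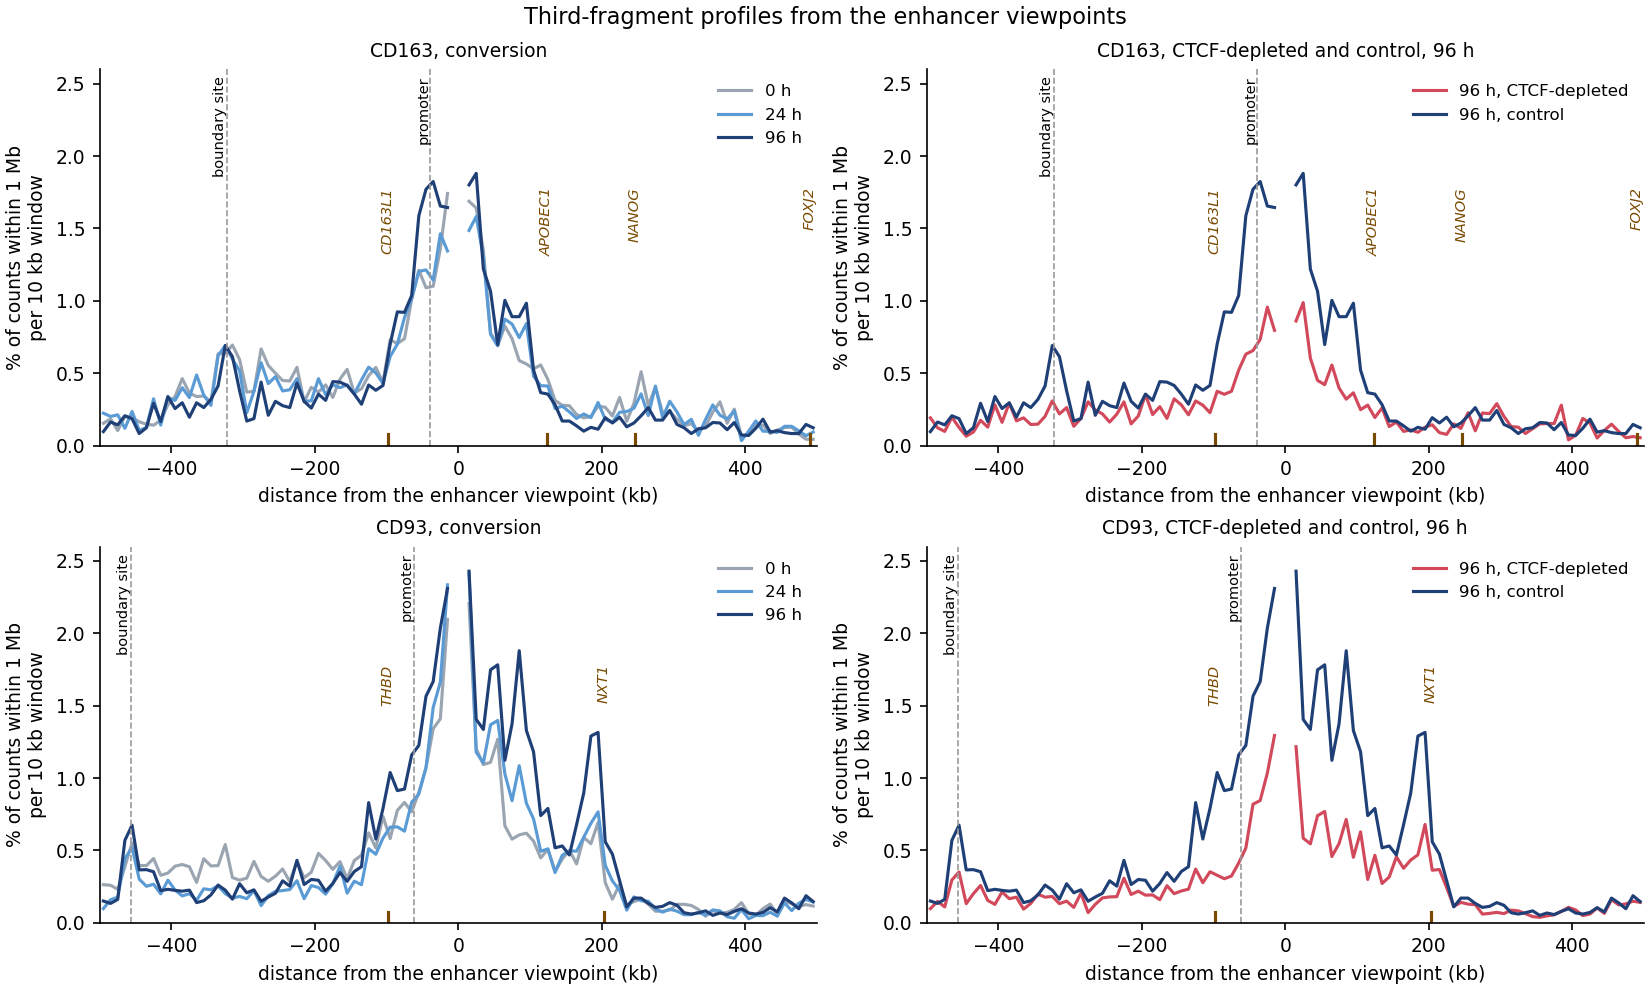
Percent of counts within 1 Mb that had a distant reporter in each 10 kb window (y axis) by distance from the enhancer viewpoint in kb (x axis), at CD163 above and CD93 below; the left panels hold 0, 24 and 96 h and the right panels the CTCF-depleted and control libraries at 96 h. Dashed lines mark the promoter and boundary site, and brown ticks the starts of neighbouring genes. At 96 h the window over the start of CD163 held 1.82%, near the 1.77 and 1.65% of the windows beside it. At CD93 the highest gain is 80 to 90 kb beyond the enhancer.

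The promoters of neighbouring genes within 500 kb of the enhancer numbered 17 at CD163 and 11 at CD93, and all were measured. Over all loci, 12.1% of neighbouring promoters rose and 20.8% fell at 96 h over 0 h. At CD163 only that of FOXJ2 rose (38 counts at 96 h and 11 at 0 h, 1.73, 0.78 to 2.89). Those of GDF3, a ligand of the TGF-β family (68 and 112, -0.73), NANOG (61 and 120, -0.99) and NANOGNB, a gene next to NANOG (62 and 93, -0.60), fell. CD163L1, a scavenger receptor related to CD163 with its start at -98.6 kb from the enhancer (minus for the side of lower coordinates), had 200, 226 and 201 counts at 0, 24 and 96 h, or 0.671, 0.641 and 0.668%. The gain at the CD163 promoter was thus not shared by the promoter of its relative, whose log2 ratio was -0.01 (-0.30 to 0.28) at 96 h over 0 h. APOBEC1, which edits the mRNA of apolipoprotein B, had 125 counts at 96 h and 173 at 0 h (-0.48, -0.83 to -0.15, not called). The remaining 11 neighbours, among them the complement proteases C1S and C1R, were not called either, with log2 ratios of -0.57 (ACSM4) to 0.28 (C1RL).

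At CD93, 4 of 11 neighbouring promoters rose at 96 h over 0 h and none fell. THBD encodes thrombomodulin, the endothelial cofactor of thrombin, and starts at -98.5 kb from the enhancer, next to CD93. Its promoter had 321, 382 and 568 counts at 0, 24 and 96 h, and rose by 0.73 (0.53 to 0.93, adjusted exact p = 2.01e-12). That of NXT1, a factor of mRNA export, had 221, 367 and 525 counts, and rose by 1.16 (0.93 to 1.39). GZF1 had 103, 200 and 305 counts, with 1.47 (1.15 to 1.81). CSTL1, a cystatin-like gene, had 58, 75 and 104 counts, with 0.74 (0.27 to 1.24). The ratios of NXT1 and GZF1, which lie on the other side of the enhancer more than 200 kb away, were thus above that of CD93 itself, 0.77. SSTR4, a somatostatin receptor, had 394, 355 and 456 counts (0.11, -0.08 to 0.31), and like NAPB and the cystatin genes CST11, CST8, CST9L, CST9 and CST3 it was not called, with ratios of 0.03 to 0.49 over these 7 promoters. At 24 h over 0 h, with 8.72% of neighbouring promoters rising and 10.7% falling, GZF1 rose (0.79) and CST11 fell (-0.67) at CD93, while none of 17 passed at CD163. The same test at 96 h over 24 h, with 2.70% rising and 14.6% falling, called THBD, NXT1, GZF1 and CST11 as rises at CD93 (0.59 to 0.69) and ACSM4, GDF3 and NANOG as falls at CD163. The distant share as a whole changed by 0.47 at CD93 and by -0.09 at CD163 in this comparison, ranks 2 and 47 of 51 by rise. No ratio of a neighbour was taken relative to distant counts. Among the calls at 96 h over 0 h, those of THBD, CSTL1 and NANOGNB were lost with windows of 30 kb (0.43, 0.44 and -0.56), and that of GDF3 with windows of 7.5 kb (-0.51). Of the earlier calls, GZF1 was lost with 30 kb (0.40) and CST11 with both widths (-0.20 with 7.5 kb, -0.53 with 30 kb). At 96 h over 24 h the calls of GDF3 (-0.27 with 7.5 kb, -0.38 with 30 kb), CST11 (0.56 and 0.54), NANOG (-0.62 with 7.5 kb), ACSM4 (-0.40 with 30 kb) and THBD (0.55 with 30 kb) were lost, so that those of NXT1 and GZF1 alone held at both widths.

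**Figure D3:**
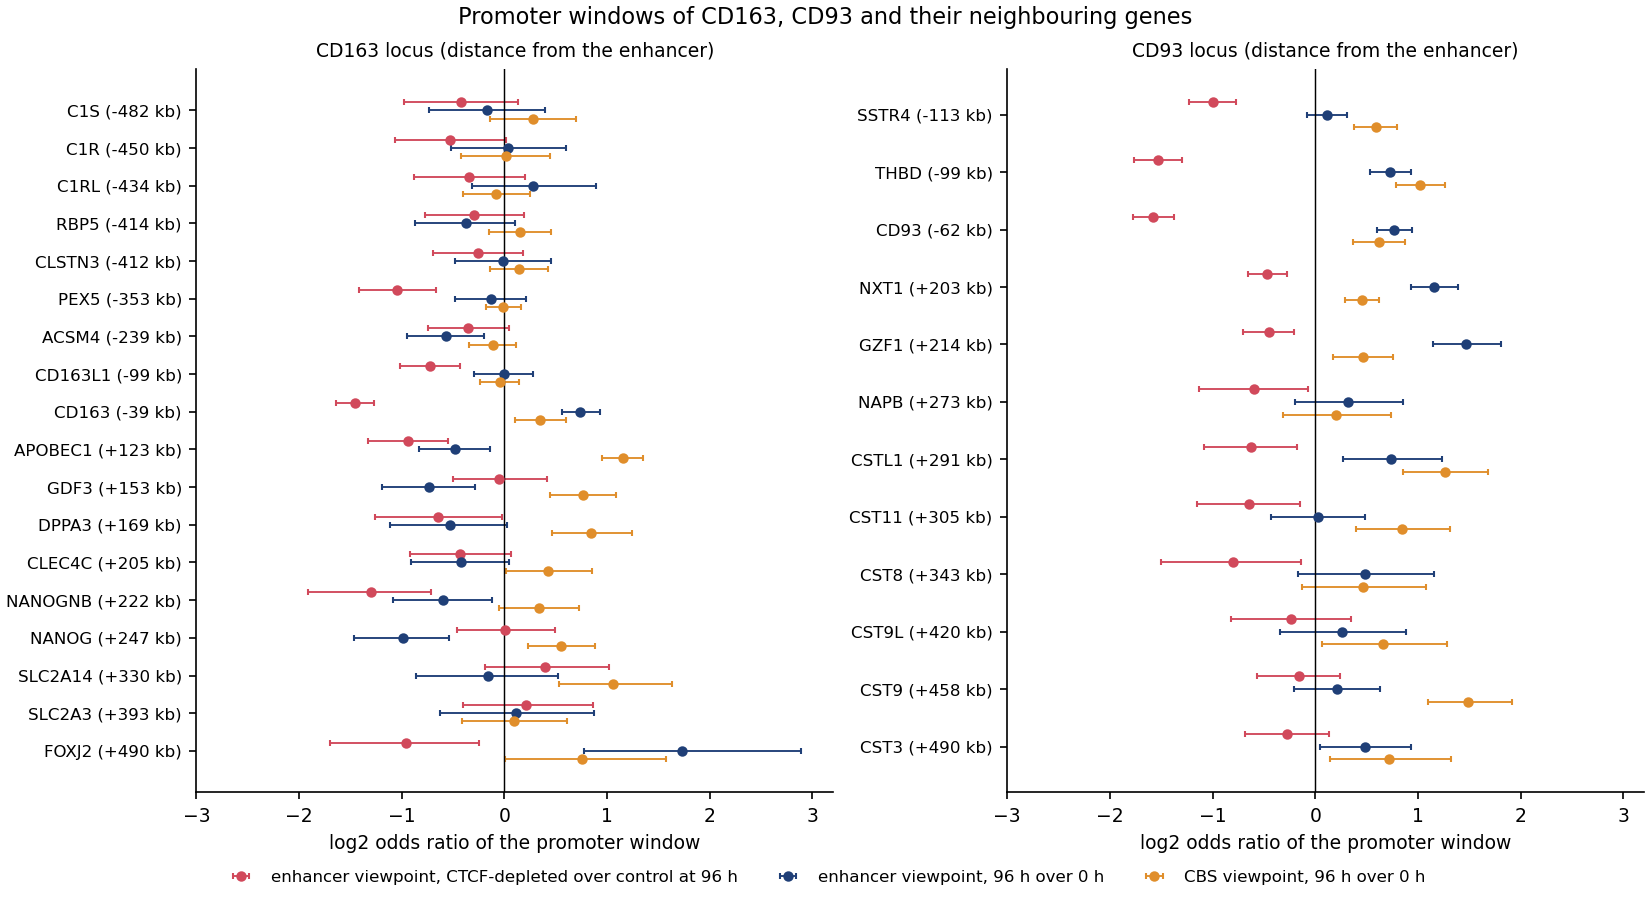
Log2 odds ratio of the 12 kb promoter window (x axis, points with 95% exact intervals) for CD163, CD93 and the neighbouring genes, ordered by distance from the enhancer (y axis); red is CTCF-depleted over control at 96 h, blue is 96 h over 0 h from the enhancer, and orange is 96 h over 0 h from the CBS. In blue, GZF1 at 1.47 lies right of CD93 at 0.77, and CD163L1 at -0.01 lies on the zero line next to CD163 at 0.74.

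Contacts of the enhancer with the boundary site together with another distant fragment (E-C-X) numbered 242, 296 and 281 at CD163 at 0, 24 and 96 h, or 0.812, 0.840 and 0.934%. At CD93 they numbered 367, 386 and 482, or 0.722, 0.677 and 0.886%. Neither locus passed the rule in any comparison of time points. The log2 ratios at 96 h over 0 h were 0.20 (-0.05 to 0.46) at CD163 and 0.30 (0.10 to 0.50, adjusted exact p = 0.00421) at CD93, where 21 of 51 loci rose (41.2%). At 24 h over 0 h, with 13.7% of loci rising, they were 0.05 and -0.09, and at 96 h over 24 h, with 23.5% rising, 0.15 and 0.39. Contacts that joined all 3 elements (E-P-C) were rare. At CD163 they numbered 5, 5 and 17 at 0, 24 and 96 h and rose by 1.66 (0.25 to 3.55, adjusted exact p = 0.0273) at 96 h over 0 h, where 16 of 29 measured loci rose (55.2%), and by 1.90 (0.50 to 3.79, adjusted exact p = 0.0120) at 96 h over 24 h, where 42.4% rose. With windows of 30 kb both calls were lost (0.63 and 0.36). At CD93 they numbered 9, 8 and 9, under the 20 counts needed for a test, so that a gain of the size at CD163 was not seen there but the depth allows ratios up to 1.41 at 96 h over 0 h.

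Boundary crossing was measured among the distant reporters found between enhancer and boundary or farther on, as the percent that had passed the site. Both reporters of a count could enter, as with 16000 reporters from 13327 distant counts at CD93 at 0 h. Its intervals and p-values are therefore too narrow even for counting error. It was 26.2, 29.3 and 25.2% at CD163 and 24.6, 19.8 and 20.8% at CD93 at 0, 24 and 96 h. At 24 h the share was thus above that at 0 h for CD163 and below it for CD93. The log2 ratios at 24 h over 0 h were 0.22 (0.13 to 0.30) at CD163 and -0.41 (-0.48 to -0.34) at CD93. Neither reached the fold minimum of a call, which 11.8% of loci passed as rises and 19.6% as falls. The ratios at 96 h over 0 h, where 39.2% of loci fell, were -0.08 (-0.17 to 0.01) at CD163 and -0.32 (-0.38 to -0.25) at CD93. At 96 h over 24 h, where 25.5% fell, they were -0.30 (-0.38 to -0.21) and 0.09 (0.02 to 0.16).

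From the CBS viewpoints the same elements were read in the other direction. Contacts with the promoter and a further fragment (C-P-X) numbered 232, 321 and 316 at CD163 at 0, 24 and 96 h, or 0.596, 0.675 and 0.760%. At CD93 they numbered 209, 239 and 340, or 0.458, 0.454 and 0.704%. With the settings used here, the CD93 share was thus level over the first day and higher at 96 h. It rose by 0.62 (0.37 to 0.88, adjusted exact p = 1.82e-06) at 96 h over 0 h, where 21 of 48 measured loci rose (43.8%), and by 0.63 (0.39 to 0.88) at 96 h over 24 h, where 18.8% rose. Relative to distant counts both calls were lost (0.51 and 0.58), and the call at 96 h over 24 h held in 5 of 8 alternatives. At CD163 the ratio at 96 h over 0 h was 0.35 (0.10 to 0.60, adjusted exact p = 0.00716), under the fold minimum. The ratios at 24 h over 0 h, with 22.9% of loci rising, were 0.18 at CD163 and -0.01 at CD93. Over the alternatives this CD93 ratio was -0.15 to 0.32, so that the level first day depended on the setting. Contacts with the enhancer and a further fragment (C-E-X) numbered 205, 234 and 199 at CD163, or 0.527, 0.492 and 0.478%, and 255, 281 and 378 at CD93, or 0.559, 0.534 and 0.783%. Neither was called at 96 h over 0 h, with -0.14 (-0.43 to 0.15) at CD163 and 0.49 (0.25 to 0.72) at CD93, where 37.3% of loci rose. At 96 h over 24 h, with 27.5% rising, the CD93 ratio was 0.55 (0.33 to 0.78) and the CD163 ratio -0.04, and at 24 h over 0 h, with 11.8% rising, they were -0.07 and -0.10. Contacts of all 3 elements from the CBS numbered 5, 0 and 9 at CD163 and 1, 3 and 11 at CD93, too few to test, and a count of 0 allows up to 3.

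From the CBS viewpoint of CD163 the highest window lay 410 to 420 kb from the site, beyond the enhancer, with 1087 counts at 96 h and 774 at 0 h (2.61 and 1.99%, 0.40, not called). The windows of largest rise were beside it, at APOBEC1 440 to 450 kb away (608 and 249, 1.20, 0.99 to 1.42), at GDF3 (194 and 102, 0.83) and at APOBEC1 420 to 430 kb away (764 and 423, 0.77). The window over the start of CD163 ranked 45, 42 and 37 of 98 at 0, 24 and 96 h, so that a window past the enhancer held more counts than it. Counts were not corrected for the number of NlaIII fragments in a window. At CD93 the highest window was the one 10 to 20 kb from the site (949 at 96 h and 886 at 0 h). The largest rises lay between the site and the enhancer, 320 to 330 kb away without a protein-coding gene (399 at 96 h and 185 at 0 h, 1.03, 0.78 to 1.29), 350 to 360 kb away at THBD (355 and 182, 0.88) and 440 to 450 kb away (280 and 149, 0.83). The window over the start of CD93 ranked 70, 63 and 35 of 98. Of 97 measured windows at CD163, 7 rose and 4 fell, and of 98 at CD93, 9 rose and 4 fell, against 11.7% rising and 9.66% falling over all loci. The largest falls lay on the far side of the sites, at C1S and LPCAT3 for CD163 (51 at 96 h and 86 at 0 h, -0.85) and 420 to 430 kb away for CD93 (55 and 94, -0.85). FOXA2, a forkhead factor of endodermal tissues, lay in the second largest fall of CD93 (90 and 149, -0.81).

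**Figure D4:**
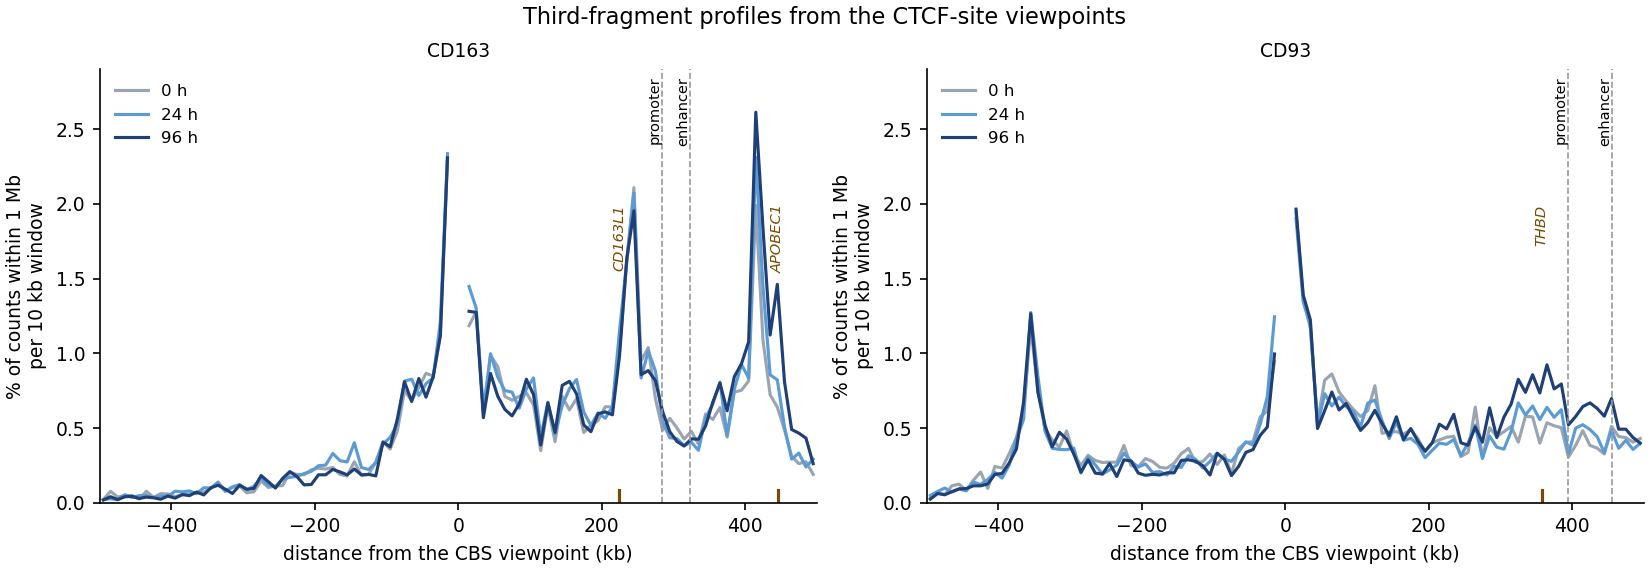
Percent of counts within 1 Mb that had a distant reporter in each 10 kb window (y axis) by distance from the CBS viewpoint in kb (x axis), at 0, 24 and 96 h, for CD163 on the left and CD93 on the right, with dashed lines at the promoter and enhancer and brown ticks at neighbouring genes. At CD163 the window 410 to 420 kb away stands highest, with 2.61% at 96 h, and at CD93 the line of 96 h lies above the others from 320 to 450 kb.

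Among neighbouring promoters seen from the CBS, 4 of 17 rose at CD163 and 6 of 11 at CD93 at 96 h over 0 h, and none fell, against 12.2% rising and 10.3% falling over all loci. All 11 at CD93 lie on the promoter side of the CBS. That side held 75.0, 75.4 and 78.4% of distant reporters at CD163 at 0, 24 and 96 h, and 69.0, 71.8 and 75.5% at CD93. The distant share from the CBS was 28.2, 30.8 and 31.4% at CD163 and 30.4, 31.4 and 32.9% at CD93. The part of these shifts in the window and neighbour ratios from the CBS was not tested. At CD163, APOBEC1 had 293, 443 and 690 counts at 0, 24 and 96 h and rose by 1.15 (0.95 to 1.35, adjusted exact p = 5.12e-31). GDF3 (0.76), DPPA3, a maternal factor of early embryos (0.84), and SLC2A14, a glucose transporter (1.06), also rose. APOBEC1 and GDF3 were thus seen more often with the CBS at 96 h, while their ratios with the enhancer were below 0. CD163L1 had 444, 611 and 460 counts (-0.05, -0.24 to 0.15, not called). At CD93, THBD had 213, 352 and 457 counts and rose by 1.02 (0.79 to 1.27, adjusted exact p = 4.17e-17). SSTR4 (0.59), CSTL1 (1.26) and the cystatin genes CST11 (0.84), CST9 (1.49) and CST3 (0.72) rose too, CST9 with 69, 203 and 206 counts. At 24 h over 0 h, CST9 (1.35), CSTL1 (0.85), CST11 (0.66) and CST3 (0.75) had already risen, and GZF1 rose as well (0.78), against 11.8% of neighbouring promoters rising and 4.38% falling. At the same time C1S, DPPA3 and SLC2A14 rose and SLC2A3, a glucose transporter, fell (-0.77) at CD163, but each of these 4 calls was lost with another window: C1S (0.58) and DPPA3 (0.43) with 30 kb, SLC2A14 (0.045 with 7.5 kb, 0.24 with 30 kb) and SLC2A3 (0.074 with 7.5 kb, -0.083 with 30 kb). At CD93 those of CST11 (0.65 with 7.5 kb, 0.39 with 30 kb) and CST3 (0.59 with 7.5 kb) were lost. Of the calls at 96 h over 0 h, DPPA3 (0.55 with 30 kb), SLC2A14 (0.62 with 7.5 kb) and CST3 (0.53 with 7.5 kb, 0.56 with 30 kb) were lost. At 96 h over 24 h, where 3.45% rose and 9.20% fell, APOBEC1 (0.84) and SLC2A3 (0.87) passed at CD163 and none at CD93, and the SLC2A3 call was lost with both other widths (0.26 with 7.5 kb, 0.31 with 30 kb).

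The last comparison addressed the contacts at 96 h when CTCF was depleted. At CD163, E-P-X contacts numbered 380 in the CTCF-depleted library and 644 in the control, or 0.792 and 2.14%. At CD93 they numbered 282 and 781, or 0.485 and 1.44%. Both fell, with log2 ratios of -1.45 (-1.64 to -1.27, adjusted exact p = 2.13e-56) at CD163 and -1.58 (-1.78 to -1.38, adjusted exact p = 1.16e-62) at CD93. At 40 of 51 loci E-P-X fell (78.4%), with a median of -0.93 over all loci, and by rise CD163 ranked 44 and CD93 ranked 48. Relative to distant counts both calls held, with smaller ratios of -0.86 and -0.78, and 16 of 51 loci fell. With each fragment pair counted once, 26 fell. The mirror windows held 328 counts in the depleted library and 454 in the control at CD163 (-1.15, -1.36 to -0.95) and 332 and 768 at CD93 (-1.32, -1.51 to -1.13). Promoter over mirror was 1.16 in the depleted library and 1.42 in the control at CD163, and 0.849 and 1.02 at CD93. E-C-X contacts numbered 175 in the depleted library and 281 in the control at CD163 (-1.36, -1.65 to -1.09) and 275 and 482 at CD93 (-0.91, -1.13 to -0.69). Both fell, as did 44 of 51 loci (86.3%), but relative to distant counts the CD93 ratio was -0.09 (adjusted exact p = 0.445), and with each fragment pair counted once -0.47. E-P-C contacts numbered 2 in the depleted library and 17 in the control at CD163 (-3.48, -6.92 to -1.69) and 1 and 9 at CD93, too few to test.

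In the depleted library, boundary crossing set the loci apart. At CD163, 34.2% of these reporters had passed the site in the depleted library and 25.2% in the control. At CD93 these shares were 21.4 and 20.8%. CD163 rose by 0.63 (0.54 to 0.71, adjusted exact p = 6.05e-49), as did 32 of 51 loci (62.7%). The CD93 ratio was 0.05 (-0.03 to 0.13, adjusted exact p = 0.186), the second lowest of 51 loci. The difference between the loci was 0.57 (0.44 to 0.71).

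By windows, 38 of 98 fell and 4 rose at CD163 in the depleted library over the control, and 50 fell and none rose at CD93, where the largest ratio among windows of 50 counts or more was 0.44 (48 and 33 counts, adjusted exact p = 0.241), against 42.5% falling and 7.71% rising over all loci. The falls at CD163 were largest beside the boundary site, 310 to 320 kb away (105 in the depleted library and 185 in the control, -1.49), 80 to 90 kb on the other side of the enhancer (154 and 268, -1.48) and over CD163 (315 and 533, -1.45). The rises at CD163 were remote, at C1S 490 to 500 kb away (92 and 29, 0.98) and at SLC2A3 380 to 390 kb (134 and 48, 0.80) and 450 to 460 kb away (71 and 27, 0.71). At CD93 the falls were largest at THBD, 90 to 100 kb away (191 and 565, -1.67, -1.91 to -1.43), in the window next to it (177 and 497, -1.59) and 90 to 100 kb on the other side (263 and 723, -1.56). The window 80 to 90 kb beyond the CD93 enhancer held 415 counts in the depleted library and 1023 in the control (-1.41). Window ratios were not taken relative to distant counts, whose share changed by -0.78 at CD163 and -1.05 at CD93.

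Of the neighbouring promoters seen from the enhancer, 5 of 17 fell at CD163 and 6 of 11 at CD93 in the depleted library, and none rose, against 30.8% falling and 8.84% rising over all loci. At CD163 these were PEX5 (107 counts in the depleted library and 138 in the control, -1.04), CD163L1 (194 and 201, -0.73), APOBEC1 (104 and 125, -0.94), NANOGNB (-1.30) and FOXJ2 (-0.96). The PEX5 start lay at -353 kb from the enhancer, past the boundary site. GDF3 and NANOG were not called, with -0.05 (-0.50 to 0.42) and 0.01 (-0.46 to 0.50). At CD93, THBD fell most (211 and 568, -1.53, -1.77 to -1.30, adjusted exact p = 5.22e-43), close to CD93 itself. SSTR4 (245 and 456, 95% interval -1.23 to -0.77), NAPB (-0.59), CSTL1 (-0.62), CST11 (-0.64) and CST8 (-0.80) also fell. NXT1 (406 and 525, -0.47, -0.66 to -0.28) and GZF1 (238 and 305, -0.45, -0.71 to -0.21), on the other side of the enhancer, were not called, under the fold minimum. The NXT1 ratio was past that minimum with other windows (-0.67 with 7.5 kb, -0.89 with 30 kb), and that of GZF1 was -0.48 and -0.42. Calls were lost for APOBEC1 (-0.51), CST11 (-0.50) and CST8 (-0.43) with 30 kb, and for CSTL1 (-0.36) and CST8 (-0.87) with 7.5 kb. No ratio of a neighbour was taken relative to distant counts, whose share changed by -0.78 at CD163 and -1.05 at CD93.

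**Figure D5:**
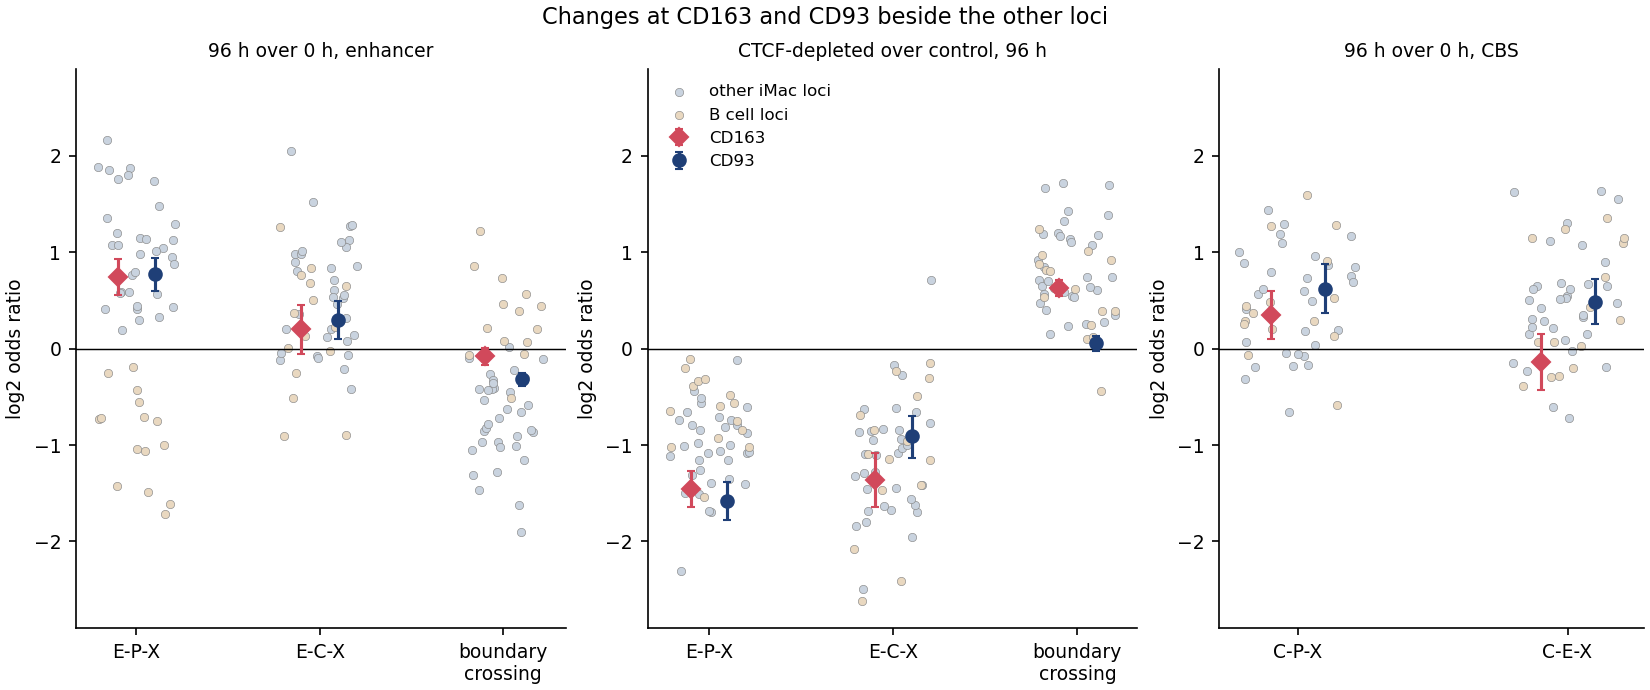
Log2 odds ratio of each contact class (y axis) at 51 loci, or 48 for C-P-X, for 96 h over 0 h from the enhancer, CTCF-depleted over control at 96 h from the enhancer, and 96 h over 0 h from the CBS; CD163 (red) and CD93 (blue) have 95% exact intervals, and grey and tan points are the other iMac and the B cell loci. In the depleted library CD163 and CD93 lie at -1.45 and -1.58 for E-P-X, and CD93 lies at 0.05 for boundary crossing, below all but 1 locus.

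Set side by side, the changes of E-P-X differed between the loci by less than counting error allows to resolve with the settings used here. The difference CD163 minus CD93 was -0.22 (-0.49 to 0.05) at 24 h over 0 h, -0.03 (-0.28 to 0.22) at 96 h over 0 h, 0.19 (-0.04 to 0.42) at 96 h over 24 h and 0.12 (-0.15 to 0.39) for CTCF-depleted over control. All 4 intervals include 0 and leave differences up to their bounds possible. Under other settings some intervals left 0 out, with -0.43 (relative to distant counts) and -0.27 (outermost start) at 24 h over 0 h, 0.17 (30 kb) at 96 h over 0 h, and 0.65 (relative to distant counts) and 0.29 (exclusion of 5 kb) at 96 h over 24 h, while the difference at 24 h over 0 h was 0.16 with 30 kb. Likeness was measured over 6 log2 changes per locus, 3 of E-P-X and 3 of E-C-X (24 h over 0 h, 96 h over 0 h and CTCF-depleted over control). By these, CD163 and CD93 were nearest to each other among the 51 loci, at a Euclidean distance of 0.547. PTPRC (0.551, nearly a tie) and FRAT2 (0.66) came next for CD163, and FRAT2 (0.58) and PTPRC (0.60) for CD93. BCL11A, a locus of a B cell gene, was the farthest from both, at 3.26 and 3.32. These distances describe 6 values per locus that share the 96 h and 0 h libraries, and carry no test. They leave out boundary crossing, C-P-X and C-E-X, in which CD163 and CD93 differed in some comparisons.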

How the data were processed

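The authors made the files with the CapCruncher pipeline in capture mode and their own custom script (version not given in the sources), with reads aligned to hg38 and cut in silico at NlaIII sites. Each deposited file holds, for 1 viewpoint and condition, the count of each pair of reporter fragments, unnormalized and pooled over 3 biological replicates. All 93629 fragments listed for chromosome 12 and all 79711 for chromosome 20 lay between NlaIII sites of hg38, and viewpoints were placed by the capture oligo.

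For each locus and library, counts in 12 kb windows were set against all counts whose reporters both lay less than 1 Mb away from the viewpoint. They were not corrected for the number of NlaIII fragments in a window. Comparisons of level between windows, such as ranks and promoter over mirror, can therefore also reflect that number. Pairs of libraries were compared by a two-sided exact conditional binomial test at 51 loci (IFNGR2 and TASL were not used here), with Benjamini-Hochberg adjustment over the loci with at least 20 counts. A call needed an adjusted p under 0.05 and a 1.5-fold odds ratio (log2, 0.5 added to counts). Shares have Clopper-Pearson 95% intervals. Intervals and p-values cover counting error only, and counts that come from 1 read or from amplified copies are not independent, so that both are too narrow. Neighbouring promoters (protein-coding, within 500 kb of the enhancer) and 10 kb windows (within 500 kb of the viewpoint) were tested in the same way over all loci. Promoters are the starts of canonical transcripts. The sequence of the CD163 CBS fragment is not reported here. The self-test recovered known changes in simulated independent counts, and these changes were larger than the E-P-X rises at both loci. It does not cover counts that depend on one another, nor changes near the fold minimum.

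Named were CD163 and CD93, neighbours that passed or held 100 counts over both libraries, the 3 windows of largest rise and fall with at least 50 counts, and the 3 loci nearest over 6 changes. Other neighbours and windows were named after their values were seen. Members and lists were chosen with earlier results of these data known. Alternatives were other windows (7.5 and 30 kb), exclusions (5 and 20 kb), normalizations (distant counts, whole chromosome), pairs counted once, counts divided by 3, and the outermost start. Python 3.11.15, NumPy 2.4.6, pandas 2.3.3, SciPy 1.17.1 and matplotlib 3.10.9 were used.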

Additional observations from a re-analysis of the deposited data

Results flagged for a closer look

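Of 18 differences between the loci in the same comparison (CD163 minus CD93, log2 odds ratios), 8 had a 95% interval without 0 and are given here because the same change of libraries moved the loci by unequal amounts. The intervals cover counting error only, and no test across replicates could be made.

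Boundary crossing differed in every comparison, but its intervals take both reporters of a count as independent and are too narrow even for counting error. The difference was 0.62 (0.50 to 0.75) at 24 h over 0 h, 0.24 (0.11 to 0.37) at 96 h over 0 h, -0.39 (-0.51 to -0.26) at 96 h over 24 h and 0.57 (0.44 to 0.71) for CTCF-depleted over control. At 24 h over 0 h the log2 ratio was 0.22 at CD163 and -0.41 at CD93. In the depleted library CD163 rose by 0.63, while the CD93 ratio was 0.05.

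Contacts of the boundary site with the enhancer (C-E-X) differed by -0.63 (-0.99 to -0.26) at 96 h over 0 h and by -0.60 (-0.95 to -0.24) at 96 h over 24 h, with CD93 the higher. Contacts of the boundary site with the promoter (C-P-X) differed by -0.46 (-0.79 to -0.14) at 96 h over 24 h. Contacts of the enhancer with the boundary site (E-C-X) differed by -0.45 (-0.80 to -0.11) for CTCF-depleted over control, with the larger fall at CD163. This interval included 0 with other windows (-0.36 with 7.5 kb, -0.20 with 30 kb) and with fragment pairs counted once (-0.35), as did that of boundary crossing at 96 h over 0 h with pairs counted once (0.11). The distance between enhancer and boundary site was 323 kb at CD163 and 456 kb at CD93, and its part in these differences was not tested.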

How the results depend on the processing

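No paired analysis was possible because the deposited files pool the replicates, and for the same reason no replicate could be left out. Of the changes at CD163 and CD93 under the alternatives, 234 kept direction and call, 10 lost a call, 4 gained one and 19 changed sign without being called in either setting. The E-P-X falls in the CTCF-depleted library were called under every alternative (-0.86 and -0.78 at CD163 and CD93 relative to distant counts), as was the E-P-X rise at CD163 at 96 h over 0 h. The cause of the changes below was not tested.

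With windows of 30 kb, calls were lost for E-P-X at 96 h over 0 h at CD93 (0.43), E-P-X at 96 h over 24 h at CD163 (0.54), C-P-X at 96 h over 24 h at CD93 (0.41) and E-P-C at CD163 (0.63 at 96 h over 0 h, 0.36 at 96 h over 24 h). Relative to distant counts, they were lost for C-P-X at CD93 (0.51 at 96 h over 0 h, 0.58 at 96 h over 24 h) and for E-C-X in the CTCF-depleted library at CD93 (-0.093). This E-C-X call was also lost with fragment pairs counted once (-0.47), and C-P-X at 96 h over 24 h at CD93 with an exclusion of 5 kb (0.56). Calls were gained at 96 h over 24 h at CD93 for E-P-X with an exclusion of 20 kb (0.60) or the whole chromosome as total (0.60) and for C-E-X with windows of 7.5 kb (0.68) or an exclusion of 20 kb (0.60).

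Signs changed at 24 h over 0 h for E-P-X (-0.00885 at CD163 with 7.5 kb, -0.10 at CD93 with 30 kb), for E-C-X at CD163 (-0.019 with 30 kb, -0.18 with pairs counted once) and CD93 (0.054 with 7.5 kb, 0.090 relative to distant counts, 0.00923 with pairs counted once), and for C-P-X at CD93 (0.32 with 7.5 kb, 0.22 with 30 kb, 0.072 with an exclusion of 5 kb, 0.071 with pairs counted once). At CD163 they also changed for E-C-X with 30 kb (-0.24 at 96 h over 0 h, -0.22 at 96 h over 24 h) and an exclusion of 5 kb (-0.00190 at 96 h over 24 h), and for C-E-X at 96 h over 24 h (0.19 with 7.5 kb, 0.12 with 30 kb, 0.00103 with an exclusion of 20 kb, 0.00890 with the whole chromosome, 0.034 with pairs counted once). Of the neighbours, 33 calls were lost and that of SLC2A3 from the CBS of CD163 at 24 h over 0 h changed sign (0.074 with 7.5 kb).

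Counts of loci moved by over 1.5 times in 15 cases. In the CTCF-depleted library, E-P-X fell at 40 loci, and at 16 relative to distant counts and 26 with pairs counted once, and E-C-X fell at 44, and at 24 relative to distant counts. Rises at 24 h over 0 h numbered 10 for E-P-X (5 with 30 kb), 7 for E-C-X (2 with 30 kb), 11 for C-P-X (7 with 30 kb, 5 relative to distant counts) and 6 for C-E-X (2 with 30 kb, 3 relative to distant counts). Rises at 96 h over 24 h numbered 12 for E-C-X (4 with 30 kb), 9 for C-P-X (2 with 30 kb) and 14 for E-P-C (8 with 7.5 kb, 7 with counts divided by 3), and E-P-C rose at 16 loci at 96 h over 0 h (9 with 7.5 kb, 8 with counts divided by 3).

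Of the differences between the loci (CD163 minus CD93), 9 moved by more than their counting error. These were E-P-X at 24 h over 0 h (0.16 with 30 kb) and, relative to distant counts, at 96 h over 0 h (0.22) and 96 h over 24 h (0.65), E-C-X at 24 h over 0 h (-0.19 with pairs counted once), 96 h over 0 h (-0.52 with 30 kb) and 96 h over 24 h (-0.64 with 30 kb, 0.19 relative to distant counts), C-P-X at 24 h over 0 h (-0.17 with 30 kb) and boundary crossing at 96 h over 24 h (-0.56 with an exclusion of 5 kb). With counts divided by 3, the intervals of C-E-X at 96 h over 0 h (-0.63) and 96 h over 24 h (-0.60), C-P-X at 96 h over 24 h (-0.46) and E-C-X after depletion (-0.47) included 0. That of C-P-X at 96 h over 0 h left 0 out with 7.5 kb (-0.55), 30 kb (-0.52) and pairs counted once (-0.46), and that of E-C-X at 96 h over 24 h with exclusions of 5 and 20 kb (-0.38 and -0.36).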
